A study of Homo sapiens with 24 samples.

Results

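The early response to MYC was read from 6 of the 24 RNA-sequencing libraries of the series: the 3 MYC-ER libraries collected after 8 h of 4-hydroxytamoxifen (4-OHT) and the 3 collected at 0 h, compared across all genes. The libraries were chosen by their labels alone. Both groups are MCF-10A, a non-tumorigenic, immortalised line of human breast epithelium, here carrying MYC-ER, in which MYC is joined to an oestrogen receptor domain that keeps it inactive until 4-OHT binds. Cells were grown in 3D on Matrigel at 10000 cells per well, 1 µM 4-OHT was added from day 3 onward for the stated time, and every sample was harvested on day 5, so the 0 h group had the same days in culture without the agent. Parental MCF-10A cells, which lack the fusion, were treated for 8 h or left at 0 h in the same way (3 libraries each) and are given beside the main comparison. The labels name no vehicle for the 0 h groups, do not say whether the MYC-ER line is 1 clone or a pool, and do not say whether the 3 replicates of a group came from separate cultures, so p-values measure the spread between these libraries, which may be technical.

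MYC is a transcription factor that binds DNA as a dimer with MAX, preferentially at the E-box letters CACGTG, and recruits complexes that raise transcription. It is best known for driving genes of ribosome production, nucleotide and amino acid metabolism, protein folding and entry into S phase, and for lowering genes of growth arrest and differentiation. In mammary epithelium grown in 3D, growth arrest and polarity accompany the formation of hollow spheres, and forced MYC activity is a common model of early transformation.

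The 6 libraries held 149109167 to 180459929 counts, and 3 counts in the smallest, the most that 0 counts allow, came to 0.0201 CPM (counts divided by the library total, times 1000000), a limit for counting error only. All other CPM values use TMM-scaled library totals. The 6 libraries were close to their own group, with Spearman correlations across genes of 0.9887 to 0.9914 within groups and 0.937 to 0.940 between the 0 h and 8 h libraries. The parental 0 h libraries stood apart from each other: their pairwise chi-square per degree of freedom was 158.8 to 260.5, against 15.58 to 27.34 in the MYC-ER groups, so the parental values below rest on a noisier baseline. All 11 basal mammary markers were tested, and their summed level was 16400 to 17000 CPM at 0 h and 24400 to 26600 at 8 h in MYC-ER cells. For the 9 luminal markers tested (of 11 listed) it was 291 to 319 and 713 to 748 CPM, and PGR, ELF5 and KIT were at 0 in all 6 libraries. Markers of other cell types had lower sums at 8 h, taken over the members tested. The 6 endothelial markers tested (of 11 listed) summed to 38.5 to 43.4 CPM at 0 h and 2.71 to 3.33 at 8 h. Nearly all of the 0 h sum was KDR, and CDH5, TIE1 and FLT1 were at 0 in all 6 libraries. Of the 6 tested, 2 were called higher and 2 lower. The 6 fibroblast markers tested (of 10 listed) summed to 372 to 380 and 102 to 111 CPM, with 0 called higher and 3 lower. Most of it was COL1A1 (212 to 220 CPM at 0 h, 54.0 to 58.4 at 8 h) and DCN (156 to 157 and 46.8 to 51.3), and COL1A2, PDGFRA and THY1 were at 0. The 4 leukocyte markers tested (of 10 listed) summed to 61.1 to 65.2 and 39.2 to 42.7 CPM, with 1 called higher and 3 lower. PTPRC, CD3E, MS4A1 and NKG7 were among those at 0. Their part in the results was not tested.

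After 8 h, 14975 of 22158 genes tested (67.6%) were called in edgeR's quasi-likelihood test at an adjusted p under 0.05. Of all genes, 32.2% were called higher and 35.4% lower, and 15.1% and 19.6% were called and at least 2-fold higher or lower. At least 4-fold, 1415 genes rose and 1993 fell. For 73.5% of genes the 3 values at 0 h and the 3 at 8 h did not overlap. With most genes past the threshold, a call by itself says little about any gene or group, and each count below is read against these shares. Members of the gene lists were chosen with earlier results of these data known, so high counts in a list may be built in. The calls were not limited to weakly expressed genes: 1752 of the 2039 genes with a mean of 100 to 1000 CPM were called, 1118 of them higher and 634 lower. The median log2 change over all genes was -0.10. In bulk RNA, fewer cells of a type and less RNA per cell cannot be told apart, and a CPM is a share of the library, so a change in total RNA per cell was not measured.

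**Figure D1:**
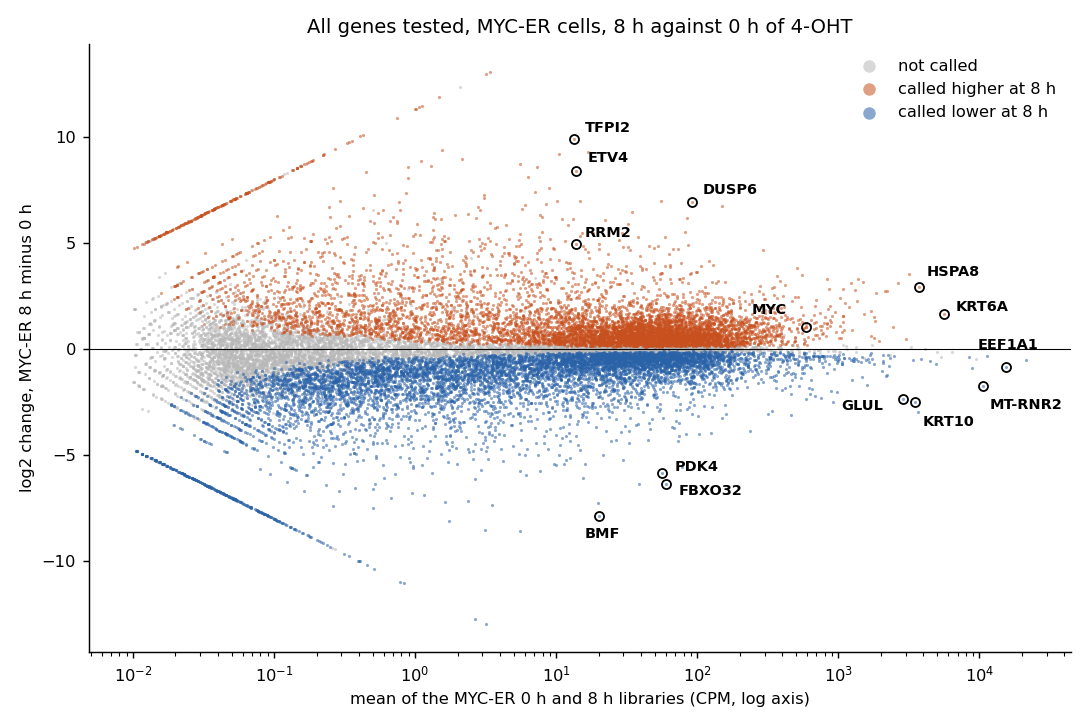
Log2 change from 0 h to 8 h in MYC-ER cells (vertical axis) against the mean level of the 2 groups in CPM (horizontal log axis), 1 dot per gene tested, orange called higher and blue called lower at an adjusted p under 0.05, grey not called. Called genes fill the whole range of levels, 7141 above 0 and 7834 below, and the diagonal edges at low level are genes with 0 counts in 1 group.

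In parental cells the same interval called 6870 genes (31.0%), with 15.0% of all genes higher and 16.0% lower. That fit shares its estimate of the spread across all 24 libraries, although the parental 0 h libraries stood apart from each other. With only the groups compared, 1452 of 19596 genes were called. The parental counts of list members below come from the shared fit and carry the same limit. A parental change of at least 2-fold was called for 483 genes. The parental log2 changes ran with base composition: across 9784 genes with at least 10 CPM, Spearman's rho with GC content was -0.621, against 0.017 in MYC-ER cells. With transcript length rho was 0.386 in parental and -0.114 in MYC-ER cells. The MYC-ER change less the parental change carried part of this, with rho 0.233 for GC content and -0.254 for transcript length. The test of the difference between the lines (change in MYC-ER cells less change in parental cells) called 12227 genes (55.2%; 27.3% positive and 27.8% negative). Of the 7693 genes called and at least 2-fold in MYC-ER cells, 6204 (80.6%) were also called in this test with the same sign. These genes were chosen by the MYC-ER change, which is part of the difference tested, so a high share was built in.

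MYC itself was read first, since the fusion carries it. MYC had 394, 378 and 388 CPM in the 0 h libraries and 795, 793 and 797 CPM at 8 h, and the 2 groups did not overlap. The log2 change was 1.04 (SE 0.068, adjusted p 8.28e-12), and fusion reads, if they fall in this row, were not told apart from endogenous MYC, so the row does not check the labels. Of the 13 genes of the MYC network, which compete for MAX or its relative MLX, 12 were tested, 6 were called higher and 4 lower, with a median log2 change of 0.22. MAX, the obligate partner, went from 53.9 to 54.8 CPM up to 69.7 to 75.8 CPM, a log2 change of 0.42. MXD1, a MAX partner that represses, rose by 1.37 on the log2 scale, and MNT, another repressing partner, by 0.76. MXD3 and MXD4 fell by 0.72 and 0.45. MYCL, a MYC paralogue, went from 1.00, 1.13 and 1.14 CPM to 0.108, 0.177 and 0.120 CPM, which on the log2 scale is -3.01 (SE 0.37, adjusted p 2.69e-07). Its parental change was 1.12, from a mean of 0.101 to 0.219 CPM. MXI1 and MGA did not pass the test, with log2 changes of 0.01 each.

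Among genes with at least 10 CPM in the higher group, the 12 largest rises included secreted proteases, a protease inhibitor, receptors and regulators of ERK signalling. TFPI2, a secreted inhibitor of serine proteases, had 0.0232, 0.0284 and 0.0292 CPM at 0 h and 29.3, 27.7 and 22.6 CPM at 8 h. MMP1, a collagenase, went from 0.0397 to 0.0696 CPM up to 31.8 to 35.0 CPM, and MMP10, a stromelysin, from 0.0175 to 0.0290 up to 10.9 to 11.2 CPM. Their log2 changes, 9.90, 9.32 and 8.74, rest on 12 or fewer counts in each 0 h library. NTSR1, the neurotensin receptor, rose to 20.1, 20.2 and 22.2 CPM (log2 change 9.20) and CHRNA9, a nicotinic receptor subunit, to between 13.2 and 15.1 CPM (7.40). The long noncoding RNA LUCAT1 rose to between 12.6 and 16.8 CPM (8.62), and the phospholipase PLA2G4E to between 16.7 and 18.5 CPM (7.61; 8.41 without MYC-ER 0 h replicate 3). NAV3, which binds microtubule ends, and MALL, a membrane raft protein, each rose by 6.97 on the log2 scale. The other 3 of the 12 largest rises were ETV4, SPRY4 and DUSP6, described with the ERK genes below.

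Of the 12 largest falls on the log2 scale, 3 began from more than 100 CPM at 0 h, those of FBXO32, PDK4 and PPM1L. KLHL38, a kelch-repeat protein, fell from 10.9, 11.2 and 10.9 CPM to 0.0289, 0.0213 and 0.0334 CPM, which is 3 to 5 counts per library (log2 change -8.58, SE 0.75, adjusted p 1.19e-09). BMF, a BH3-only protein that promotes apoptosis, fell from 39.2, 38.8 and 41.7 CPM to 0.166, 0.206 and 0.133 CPM, or -7.89 on the log2 scale (SE 0.17, adjusted p 8.20e-20). FBXO32, the ubiquitin ligase atrogin-1, fell from 120, 119 and 119 CPM to 1.25, 1.35 and 1.67 CPM (-6.39). KDR, the VEGF receptor 2, fell from between 36.6 and 41.7 CPM to between 0.187 and 0.333 CPM (-7.24). NID1, a basement membrane linker (-6.08), and PDK4, a pyruvate dehydrogenase kinase (-5.86), also fell. The receptor CMKLR2 (-6.37), the alcohol dehydrogenase ADH1B (-5.97), FIBIN (-5.75), the sugar carrier SLC2A12 (-5.75), the phosphatase PPM1L (-5.56) and the p53 relative TP73 (-5.47) complete the 12. The parental change was in the same direction and smaller for BMF (-1.80), KDR (-1.18), FBXO32 (-0.95) and PDK4 (-0.96), and the difference between the lines passed the test for each of them.

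The parental 0 h levels of these 24 genes lay near either MYC-ER level or between them. DUSP6 averaged 245 CPM in parental cells at 0 h, FBXO32 4.74 CPM and PPM1L 3.91 CPM, each nearer to the MYC-ER level at 8 h. TP73 averaged 18.9 CPM in parental cells at 0 h, against 18.5 to 20.4 CPM in MYC-ER cells at 0 h. LUCAT1 and TFPI2 averaged 1.28 and 3.10 CPM in parental cells at 0 h, between their MYC-ER levels at 0 h and 8 h. Across genes, MYC-ER libraries at 0 h correlated with parental libraries at 0 h with Spearman's rho 0.934 to 0.947, and MYC-ER libraries at 8 h with parental libraries at 8 h with 0.970 to 0.971. Every MYC-ER change described here is measured from the 0 h libraries, whatever their distance from the parental line.

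**Figure D2:**
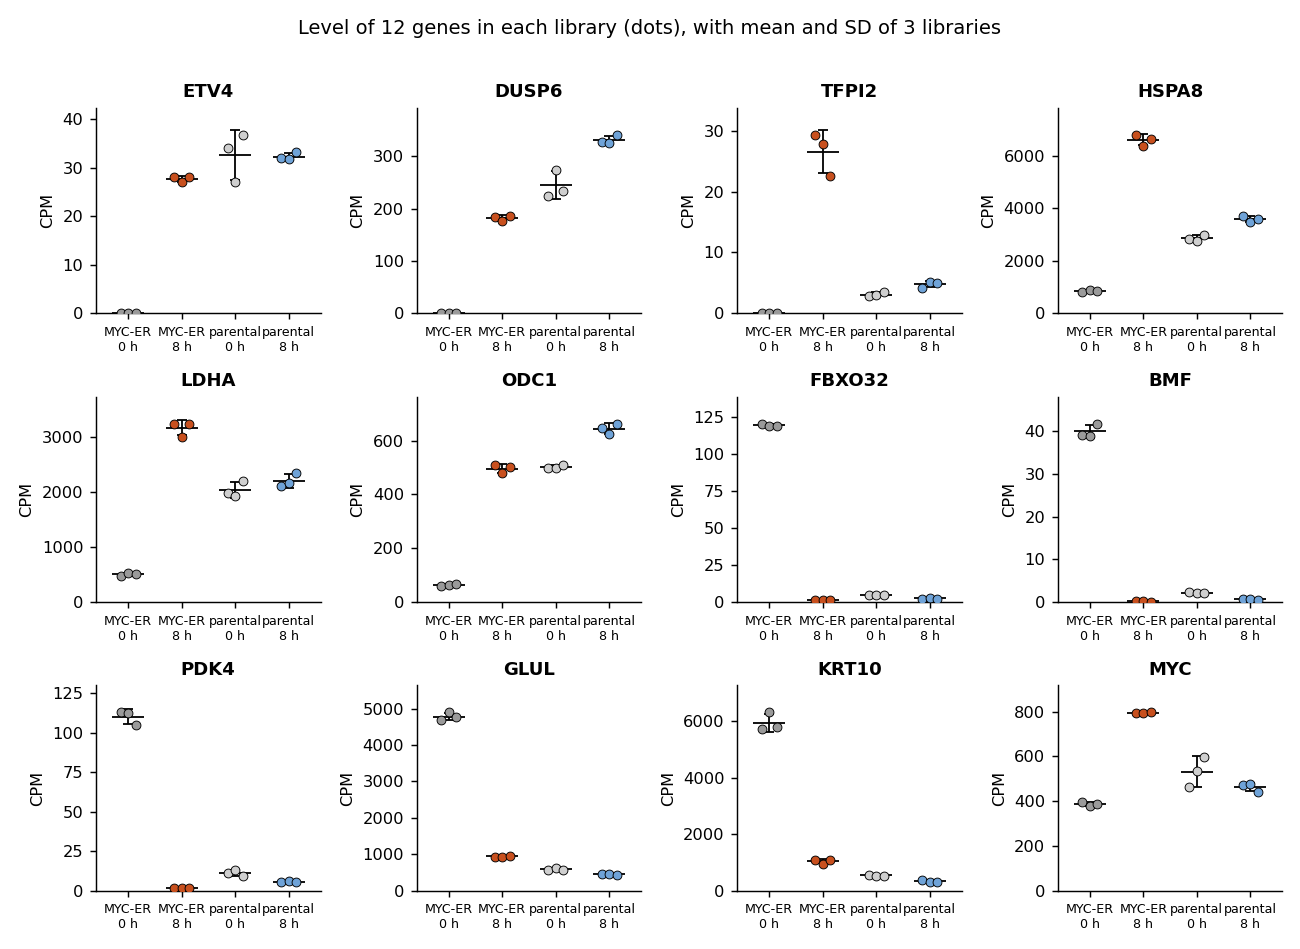
Level of 12 genes in CPM (vertical axes start at 0) in each MYC-ER and parental library at 0 h and 8 h, 1 dot per library, with the mean and SD of 3 as black bars. In every panel the MYC-ER 0 h and 8 h dots are separate, as for FBXO32 at 119 to 120 against 1.25 to 1.67 CPM, and the parental means differ less between times than the MYC-ER means in each of the 12 panels.

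By absolute change in CPM, which favours long and abundant transcripts, the 7 largest rises were those of KRT6A, HSPA8, S100A2, ACTB, HSP90AA1, ACTG1 and LDHA. KRT6A, a stress keratin, went from 2725, 2779 and 2750 CPM to 8502, 8230 and 8971 CPM, and S100A2, a calcium-binding protein of basal epithelium, from 464 to 528 CPM up to 5408 to 6297 CPM (log2 change 3.57). ACTB and ACTG1, the cytoplasmic actins, rose by 3.13 and 2.73 on the log2 scale, though reads of these near-identical genes and their pseudogenes may have been split between them. The 8 largest losses were those of the mitochondrial MT-RNR2 and MT-CO1, the elongation factor EEF1A1, which has many pseudogenes, the matrix protein TGFBI, the keratins KRT10, KRT16 and KRT5, and GLUL. KRT10, the keratin of differentiating squamous layers, fell from 5722, 6316 and 5811 CPM to 1100, 951 and 1097 CPM. GLUL, glutamine synthetase, fell from 4684, 4897 and 4759 CPM to 924, 934 and 965 CPM (-2.35, SE 0.056, adjusted p 4.99e-19). TGFBI fell by 0.89.

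The nucleolar factors that assemble ribosomes were all called higher. The list holds 47 genes, all tested: 47 rose and 0 fell, 40 of them at least 2-fold, with a median log2 change of 1.37 against -0.10 for all genes. EBNA1BP2, a factor of the large subunit, had 39.0, 41.9 and 43.5 CPM at 0 h and 233, 214 and 227 CPM at 8 h (log2 change 2.44, SE 0.081, adjusted p 8.39e-17). BOP1, of the PeBoW complex, rose from between 51.7 and 58.3 CPM to between 238 and 255 CPM (2.19), and MRTO4 from between 33.6 and 35.1 to between 149 and 157 CPM (2.16). NPM1, nucleophosmin, rose from between 1381 and 1513 CPM to between 2056 and 2186 CPM (0.53). In parental cells 11 of the 47 rose and 8 fell, with a median of 0.00, and the difference between the lines was positive and called for all 47. With upper quartile scaling, library size alone or the GC trend removed, 46 of the 47 were called higher.

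E-box letters were frequent at the starts of these genes. The letters CACGTG, which read the same on both strands, stood in 17 of the 33 nucleolar genes (51.5%) with exactly 1 window in the RefSeq promoter table, where a window runs from 250 bases before to 50 bases after the start of a gene. The share was 7.28% of all windows, 9.83% of the 9652 genes tested with 1 window, 10.7% of those called higher and 9.41% of those called lower. Above a mean level of 10 CPM it was 14.3% of the genes at least 2-fold higher and 11.6% of all genes. A match is a description of letters and not evidence of binding. Stretches around the match are shown for the 4 nucleolar genes that rose most among those that could be shown, with 1 window and a match, in lower case with the match in capitals, 5′ to 3′ on the strand of the gene (RefSeq, GRCh38.p14).
MRTO4, chr1:19251809-19251834, plus strand: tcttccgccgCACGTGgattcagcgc
MYBBP1A, chr17:4555342-4555367, minus strand: ggccggagcaCACGTGtttcgtgttt
UTP20, chr12:101280055-101280104, plus strand: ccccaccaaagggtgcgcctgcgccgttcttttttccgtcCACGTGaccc
UTP4, chr16:69132593-69132648, plus strand: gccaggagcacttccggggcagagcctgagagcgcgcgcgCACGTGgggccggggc

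Counting the start base as 0, the match began at position 14 in MRTO4, 27 in MYBBP1A, -10 in UTP20 and -16 in UTP4. MYBBP1A, a nucleolar MYB-binding protein, rose from 82.2, 80.1 and 82.7 CPM to 315, 315 and 326 CPM (log2 change 1.96). UTP20 and UTP4, parts of the small-subunit processome, rose by 1.92 and 1.68. The match also stood in 5 of 14 windows of nucleotide synthesis (35.7%) and in 6 of 16 of lysosome and autophagy (37.5%), a list in which most members fell, and in 0 of 13 windows of the cytosolic chaperones and 0 of 27 of the core spliceosome, in which most rose. In the ribosomal proteins it stood in 2 of 51 windows (3.92%).

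The ribosomal proteins themselves did not rise with the factors that assemble them. Of 77 genes, 0 were called higher and 70 lower, with a median log2 change of -0.39, and their summed level went from 75800 to 82200 CPM down to 55300 to 60200 CPM. The falls were small, from 0.00 to -0.82, and their reads are hard to assign because many have processed pseudogenes. RPLP0, of the ribosomal stalk, fell from 2824, 2918 and 3082 CPM to 1701, 1585 and 1717 CPM (-0.82, SE 0.093, adjusted p 7.64e-08). In parental cells 65 of the 77 fell, with a median of -0.32, and the difference between the lines was called for 5 of them, 1 positive and 4 negative. The parental 0 h libraries, which stood apart, summed to between 61300 and 88700 CPM for this list. Under each of the other scalings 0 members were called higher and 67 to 76 lower.

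Host genes carry small nucleolar RNAs, the guides of ribosomal RNA modification, in their introns. Of 16 snoRNA host genes 2 rose and 11 fell, 6 of them at least 2-fold. GAS5 went from 511, 505 and 538 CPM to 188, 182 and 191 CPM (log2 change -1.47, SE 0.096, adjusted p 8.83e-12), and SNHG7 and SNHG29 fell by 1.41 and 0.84. SNHG15 and SNHG17 rose by 0.82 and 0.53. In parental cells 9 fell and 1 rose, and the MYC-ER change was more negative for 10 of the 16 in the test of the difference.

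**Figure D3:**
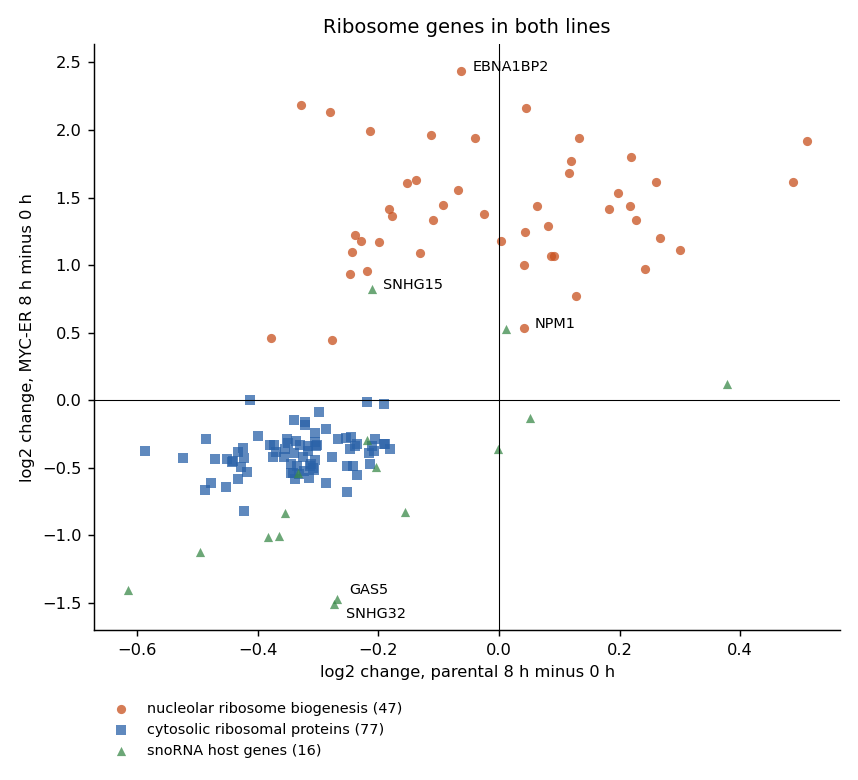
Log2 change from 0 h to 8 h in MYC-ER cells (vertical axis) against that in parental cells (horizontal axis), 1 symbol per gene, for 47 nucleolar assembly factors (circles), 77 cytosolic ribosomal proteins (squares) and 16 snoRNA host genes (triangles). The assembly factors lie above 0 in MYC-ER cells and on both sides of 0 in parental cells, and the ribosomal proteins lie at or below 0 in both lines.

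RNA polymerases I and III, which make ribosomal and transfer RNA, had 24 of 35 subunits and factors called higher and 6 lower, with a median log2 change of 0.76. POLR3G rose from 5.98, 5.47 and 6.10 CPM to 50.2, 55.4 and 44.3 CPM (3.09), whereas its paralogue POLR3GL, which takes its place in the alternative form of polymerase III, fell from between 10.5 and 12.6 CPM to between 7.68 and 8.19 CPM (-0.59). The polymerase I subunit POLR1G rose by 2.07, and BRF2, an initiation factor for a small set of polymerase III genes, fell by 0.47.

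Most aminoacyl-tRNA synthetases and initiation factors rose. Of 23 aminoacyl-tRNA synthetases, which charge transfer RNAs, 21 rose and 2 fell, with a median log2 change of 1.02. FARSA and IARS1 rose by 1.53 and 1.52, IARS1 from 164, 173 and 169 CPM to 479, 484 and 492 CPM, and AARS1 and QARS1 fell by 0.22 and 0.50. Of 37 initiation factors and regulators 27 rose and 7 fell, with a median of 0.58. EIF4EBP1, an inhibitor of the cap-binding factor, rose from a mean of 18.2 to 83.0 CPM (2.19), EIF2B2, of the exchange factor, by 1.94 and EIF3J by 1.71. EIF4A2, a helicase paralogue, fell from between 495 and 515 CPM to between 211 and 224 CPM (-1.22), and EIF3E fell by 0.71.

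All 22 cytosolic chaperones and co-chaperones were called higher, 21 of them at least 2-fold, with a median log2 change of 1.67, against 0.07 in parental cells, where 8 rose and 1 fell. HSPA8, the constitutive HSP70, went from 808, 888 and 860 CPM to 6789, 6381 and 6641 CPM (2.96, SE 0.065, adjusted p 1.66e-19), and HSP90AA1 from between 560 and 603 CPM to between 3832 and 3988 CPM (2.75). The stress-inducible HSPA1A and HSPA1B rose by 3.32 and 3.13, though these 2 genes are nearly identical and their split is uncertain. The difference between the lines was positive and called for all 22.

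Mitochondrial genes did not move together. Of 25 import and folding genes 20 rose and 0 fell, with a median log2 change of 0.91: TOMM40, the outer membrane pore, went from 76.0, 77.9 and 79.6 CPM to 266, 245 and 266 CPM (1.73), TIMM23 rose by 1.72 and the matrix chaperones HSPE1 and HSPD1 by 1.69 and 1.37. Nuclear-encoded subunits of oxidative phosphorylation had 9 of 41 higher and 22 lower, with a median of -0.23 (5 and 28 with the GC trend removed), and parental cells had 1 higher and 24 lower with a median of -0.24. The difference between the lines was called positive for 12 of these 41 and negative for 9. NDUFB5 and UQCRB fell by 0.66 each and NDUFV2 rose by 0.61. Of the 13 proteins of the mitochondrial genome 0 were called higher and 2 lower, MT-CO1 (-0.51, adjusted p 0.00136) and MT-CO2 (-0.38, adjusted p 0.0416). MT-CO2 was not called when any 1 of the 6 MYC-ER libraries was left out. The number lower was 1 with DESeq2's size factors, 6 with library size alone and 8 with upper quartile scaling or the GC trend removed. Mitochondrial transcripts took 9.24, 9.67 and 9.71% of the counts at 0 h and 5.61, 6.55 and 6.58% at 8 h, or 9.54 ± 0.26% and 6.24 ± 0.55% (SD, n = 3), groups that did not overlap. The exact permutation test gave p = 0.1, two-sided, the smallest that 3 against 3 allows. Over the 13 protein-coding genes the share went from 7.68 ± 0.18% to 5.70 ± 0.51% (SD, n = 3), and MT-RNR2 fell from 15050, 16870 and 16550 CPM to 4456, 4887 and 5326 CPM (-1.72).

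In nucleotide synthesis 20 of 27 genes rose and 6 fell, with a median log2 change of 1.21. RRM2, the cell-cycle-regulated subunit of ribonucleotide reductase, went from 0.696, 0.868 and 1.03 CPM to 28.4, 26.8 and 24.7 CPM (4.94, SE 0.12, adjusted p 4.11e-19), thymidine kinase TK1 rose by 3.16 and IMPDH1, of guanine nucleotide synthesis, by 2.46. RRM1, the large subunit, fell by 0.57 and RRM2B, the p53-induced subunit, by 0.81. At 8 h RRM2 stayed below its parental level of 141 CPM at 0 h and 214 CPM at 8 h.

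In serine and one-carbon metabolism 12 of 21 rose and 5 fell, with a median of 0.40. The mitochondrial folate enzyme MTHFD1L rose from 13.9, 13.5 and 14.7 CPM to 142, 131 and 141 CPM (3.30, SE 0.067, adjusted p 5.13e-20) and MTHFD2 by 1.34, whereas the cytosolic SHMT1 fell from between 70.7 and 71.7 CPM to between 26.4 and 27.5 CPM (-1.41). Polyamine genes had 10 of 14 higher and 4 lower, with a median of 0.97. ODC1, ornithine decarboxylase and the rate-limiting enzyme of the pathway, went from 60.5, 65.2 and 65.7 CPM to 510, 479 and 500 CPM (2.96, SE 0.063, adjusted p 9.71e-20), and the synthases SRM and SMS rose by 2.12 and 2.01. The catabolic genes SMOX and SAT1 also rose, by 1.96 and 1.26. Of 19 amino acid carriers and glutamine genes 10 rose and 5 fell: the glutaminase GLS2 rose by 1.97 while GLUL, which makes glutamine, fell as above.

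Glycolysis genes had 21 of 25 higher and 3 lower, with a median log2 change of 1.01 and 0.00 in parental cells. LDHA, lactate dehydrogenase A, rose from 479, 522 and 513 CPM to 3252, 3016 and 3253 CPM (2.65, SE 0.077, adjusted p 9.07e-18), the lactate carrier SLC16A3 by 2.39 and ENO2 by 3.46. PDK4, which holds pyruvate out of the mitochondrial cycle, fell from 113, 113 and 105 CPM to 1.99, 1.86 and 1.86 CPM. Sterol and fatty acid genes had 23 of the 31 tested (of 32 listed) higher and 3 lower, with a median of 0.73, with rises in HMGCS1 (2.41) and INSIG1 (2.17), and LSS fell by 1.09. With upper quartile scaling 5 were lower, and with the GC trend removed 7. Parental cells had 12 higher, HMGCS1 among them (0.85), and 10 lower, with a median of -0.01.

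Splicing factors rose on balance. In the core spliceosome 32 of 37 rose and 2 fell, with a median log2 change of 0.78, led by SNRPA1 (1.97) and SNRPD1 (1.95), the former from 22.3, 24.4 and 23.1 CPM to 93.9, 88.5 and 91.2 CPM. SNRNP70 and SF3B1 fell by 0.51 and 0.46. Of 26 hnRNP and PTB proteins 19 rose and 5 fell, with a median of 0.67, SYNCRIP most (1.45). The SR proteins and their kinases were mixed, 11 of 20 higher and 6 lower: SRSF1 went from 155, 155 and 155 CPM to 448, 465 and 431 CPM (1.53), while the kinases CLK1 and CLK4, which phosphorylate SR proteins, fell by 1.78 and 1.62. Of 9 arginine methyltransferases and partners tested (of 10 listed) 8 rose and 1 fell, WDR77 by 1.68 and its partner PRMT5 by 1.27.

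Most genes of G1 and DNA replication rose. Of 23 G1 cyclin, E2F and RB genes 21 rose and 2 fell, with a median log2 change of 1.20. E2F1 went from 0.429, 0.550 and 0.742 CPM to 9.74, 9.32 and 9.25 CPM (4.04), E2F2 rose by 4.40 and CCNE2, cyclin E2, by 3.15. TFDP2, an E2F partner, and RBL2, the pocket protein p130, fell by 1.23 and 0.86. In DNA replication 37 of 41 rose and 3 fell, with a median of 1.21. MCM10 rose from 0.284, 0.261 and 0.216 CPM to 11.7, 11.4 and 9.54 CPM (5.42), UHRF1 from between 1.47 and 1.52 CPM to between 53.2 and 54.7 CPM (5.17) and CDC45 by 4.67. Mitosis genes had 26 of 37 higher and 7 lower, with a median of 0.84. Parental cells had 11 higher and 2 lower in the G1 list, 16 and 3 in replication and 12 and 1 in mitosis. Their medians were 0.15, 0.13 and 0.09. Mean summed levels of the 3 lists were 1520, 1420 and 236 CPM in MYC-ER cells at 8 h. In parental cells at 0 h they were 1290, 2380 and 2900 CPM. CDC20, an activator of anaphase, went from between 0.868 and 1.29 CPM to between 9.35 and 10.2 CPM, where the parental mean was 154 CPM at 0 h. Of the 5 cyclin-dependent kinase inhibitors tested (of 7 listed) 3 fell and 0 rose, CDKN1C from 122, 101 and 106 CPM to 24.5, 23.4 and 25.7 CPM (-2.15), CDKN2C by 1.33 and CDKN1B by 1.29. CDKN1A, the p53-induced inhibitor, did not pass the test (-0.09, adjusted p 0.144), but all 5 were called lower with upper quartile scaling or the GC trend removed.

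The BCL2 family, which sets the threshold for apoptosis, moved in both directions, 7 of 16 higher and 7 lower. Among the BH3-only genes BMF and BBC3 fell, by 7.89 and 2.53, and PMAIP1 rose by 1.48. BCL2, which blocks apoptosis, rose from 0.244, 0.199 and 0.216 CPM to 6.37, 6.45 and 5.04 CPM (4.76, SE 0.17, adjusted p 2.37e-16), MCL1 by 1.07 and BOK by 1.62. Targets of p53 had 6 of 22 higher and 14 lower, with a median of -0.79: GDF15 fell by 3.51, DDB2 by 2.55 and TP53INP1 by 2.55, and PLK3 and AEN rose by 3.13 and 1.16.

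Lists were drawn up with earlier results of these data known, so their ranking is a description and not a test. Among the 52 lists the highest median was that of ERK feedback genes, which are switched on by the ERK kinase cascade and damp it. Of 12 genes 11 rose and 0 fell, all 11 at least 2-fold, with a median log2 change of 3.29, and SPRED3 did not pass. DUSP6, a phosphatase of ERK, went from 1.33, 1.37 and 1.66 CPM to 184, 176 and 186 CPM (6.97, SE 0.12, adjusted p 5.40e-21). SPRY4, a Sprouty inhibitor, went from 0.887, 0.964 and 0.753 CPM to 108, 110 and 114 CPM (6.99). The ETS factor ETV4 went from 0.0522, 0.0794 and 0.111 CPM to 28.1, 27.0 and 28.0 CPM (8.41), and ETV5, its relative, rose to between 23.6 and 24.6 CPM (5.86). In parental cells 4 of the 12 rose with a median of 0.20, and the difference between the lines was called and positive for 11. Parental cells held 56.0 and 87.5 CPM of SPRY4 and 32.6 and 32.3 CPM of ETV4 at 0 h and 8 h.

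Genes downstream of growth factor signals followed in part. Among 13 AP-1 and early growth response genes 9 rose and 4 fell: EGR1 rose from 14.8, 13.5 and 13.5 CPM to 166, 163 and 172 CPM (3.58), IER3 by 4.70 and FOSL1 by 3.74, while ATF3 fell by 2.95 and FOSL2 by 1.46. Of 15 EGF-family receptors and ligands tested (of 16 listed) 8 rose and 5 fell. The ligands NRG1, HBEGF, EREG and AREG rose by 3.86, 3.37, 3.15 and 2.44, the ligand EPGN fell by 1.99 and the receptor ERBB3 by 1.93. Parental cells showed 8 of the 15 higher and 1 lower, with HBEGF at 0.76 and AREG at 0.73.

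FOXO factors and their targets, which are active when growth factor signals are low, fell as a group. Of 19 genes 18 fell and 1 rose, 15 of the falls at least 2-fold, with a median log2 change of -1.69 and -0.20 in parental cells. BCL6, a repressor, went from between 82.3 and 86.7 CPM to a mean of 7.48 CPM (-3.49), TXNIP from 1812, 1872 and 1825 CPM to 665, 674 and 643 CPM (-1.48), and FBXO32 and PDK4 fell as above. DEPP1, also a target of hypoxia signals, was the exception and rose from 1.11, 0.885 and 1.19 CPM to 63.2, 47.5 and 79.3 CPM (5.90). The difference between the lines was negative and called for 18 of the 19. The list's mean summed level was 3370 CPM at 0 h and 1150 CPM at 8 h in MYC-ER cells. In parental cells it was 931 and 828 CPM, so the lines already differed at 0 h and the MYC-ER fall was towards the parental level. Lysosome and autophagy genes had 7 of 28 higher and 17 lower, with a median of -0.57 (4 and 20 with library size alone, upper quartile scaling or the GC trend removed): GABARAPL1 fell by 3.56, ULK1, the kinase that starts autophagy, from 137, 127 and 132 CPM to 16.7, 17.5 and 20.2 CPM (-2.86), and WIPI1 by 2.60. Parental cells also had 17 lower in that list, with a median of -0.21.

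**Figure D4:**
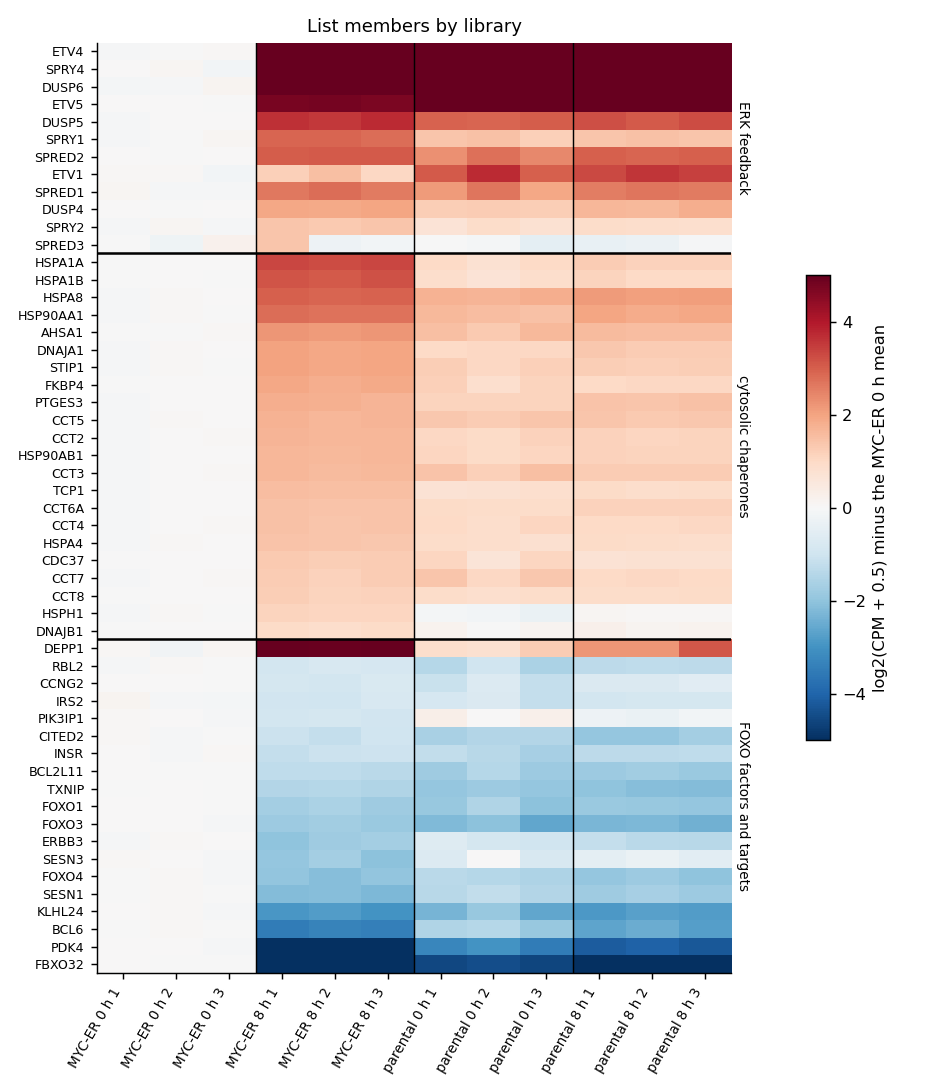
Level of the members of 3 gene lists in each MYC-ER and parental library, as log2(CPM + 0.5) minus the mean of the 3 MYC-ER 0 h libraries (colour, capped at 5 in either direction), rows sorted by the MYC-ER change within a list. ERK feedback genes and chaperones are red and FOXO genes blue in the MYC-ER 8 h libraries, apart from DEPP1, and most rows are shifted the same way in the parental libraries at both times.

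Hypoxia response genes had 13 of 14 higher and 1 lower, with a median log2 change of 1.48, and parental cells had 10 higher and 0 lower with a median of 0.60. EGLN3, an oxygen sensor induced by hypoxia, rose from 0.911, 0.601 and 0.806 CPM to 62.2, 51.8 and 90.1 CPM (6.46), CA9 by 6.31 and BHLHE40 by 3.17. At 8 h replicate 3 was the highest of the 3 libraries for EGLN3, CA9, NDRG1, VEGFA and BHLHE40, in MYC-ER and in parental cells alike. EGLN3 had 10.7, 11.4 and 20.9 CPM in the parental libraries at 8 h. Of 6 targets of the aryl hydrocarbon receptor tested (of 7 listed) 2 rose and 4 fell: CYP1B1 fell from 44.8, 52.7 and 48.1 CPM to 5.89, 4.72 and 3.99 CPM (-3.32), AHRR by 3.56 and CYP1A1 by 2.46, and NQO1 rose by 1.01. Since 4-OHT binds oestrogen receptors, 15 oestrogen response genes were looked at and 10 were tested, of which 7 rose and 2 fell, with a median of 0.64, and parental cells had 5 higher and 1 lower with a median of 0.24. AREG and NRIP1 rose by 2.44 and 1.74, and by 0.73 and 0.80 in parental cells. GREB1, a classical target, went against most of the list and fell from 52.4, 51.0 and 47.5 CPM to 2.60, 2.46 and 2.66 CPM (-4.29) and by 0.27 in parental cells. ESR1 itself had at most 0.557 CPM in any of the 6 libraries.

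The keratins moved in both directions, with a median log2 change of 0.02. Of 17 genes 7 rose and 5 fell, where 32.2% of all genes were called higher and 35.4% lower. Parental cells had 2 higher and 5 lower. KRT17, KRT18 and KRT6A rose by 2.43, 2.37 and 1.64, and KRT10 and KRT16 fell by 2.50 and 2.48. KRT16 and KRT6A, which are usually induced together, moved apart, and both have close relatives or pseudogenes that make their counts less certain. KRT5 fell by 0.33 and KRT14 rose by 1.28. Of 24 cornified envelope and squamous genes tested (of 27 listed) 7 rose and 11 fell, with a median of -0.32. Parental cells had 0 higher and 10 lower with a median of -0.40, and the difference between the lines was called positive for 9 and negative for 4. TGM5, a transglutaminase, fell by 3.50 and DSG1 by 2.15, and LCE3D and SPRR2D rose by 4.24 and 3.68.

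Junction and polarity genes showed no balance in either direction, 12 of 31 higher and 13 lower with a median log2 change of -0.05, and with DESeq2's size factors the count was 14 and 13. The desmosomal genes DSG3, PERP and DSP fell, DSG3 from 978, 1034 and 950 CPM to 188, 191 and 196 CPM (-2.37), while PKP2, also desmosomal, rose from between 30.1 and 30.3 CPM to between 185 and 203 CPM (2.67). EPCAM rose by 3.62. Of 12 integrins 8 rose and 1 fell, with a median of 1.42, and parental cells had 7 higher and 0 lower with a median of 0.41: ITGA2 went from 14.6, 14.4 and 13.2 CPM to 145, 148 and 142 CPM (3.37), ITGA5 rose by 2.57 and ITGB5 by 2.43, and ITGB8 fell by 0.60.

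Basement membrane and matrix genes had 9 of 25 tested (of 26 listed) higher and 15 lower, with a median of -0.60. NID1 fell as above, and the collagens COL4A3 and COL4A4 fell by 4.79 and 3.27. THBS1 and TNC rose by 4.06 and 3.65, THBS1 from 5.17, 5.46 and 5.94 CPM to 90.8, 94.9 and 91.6 CPM. Of 22 matrix proteases and plasminogen genes tested (of 23 listed) 12 rose and 9 fell, all 12 at least 2-fold, and parental cells had 11 higher and 4 lower with a median of 0.59. MMP1 and MMP10 rose as above, and MMP28 and MMP7 fell by 1.24 and 2.20. When at least 10 counts were required in every library, which drops the proteases that are near 0 at 0 h, fewer of that list rose than fell.

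**Figure D5:**
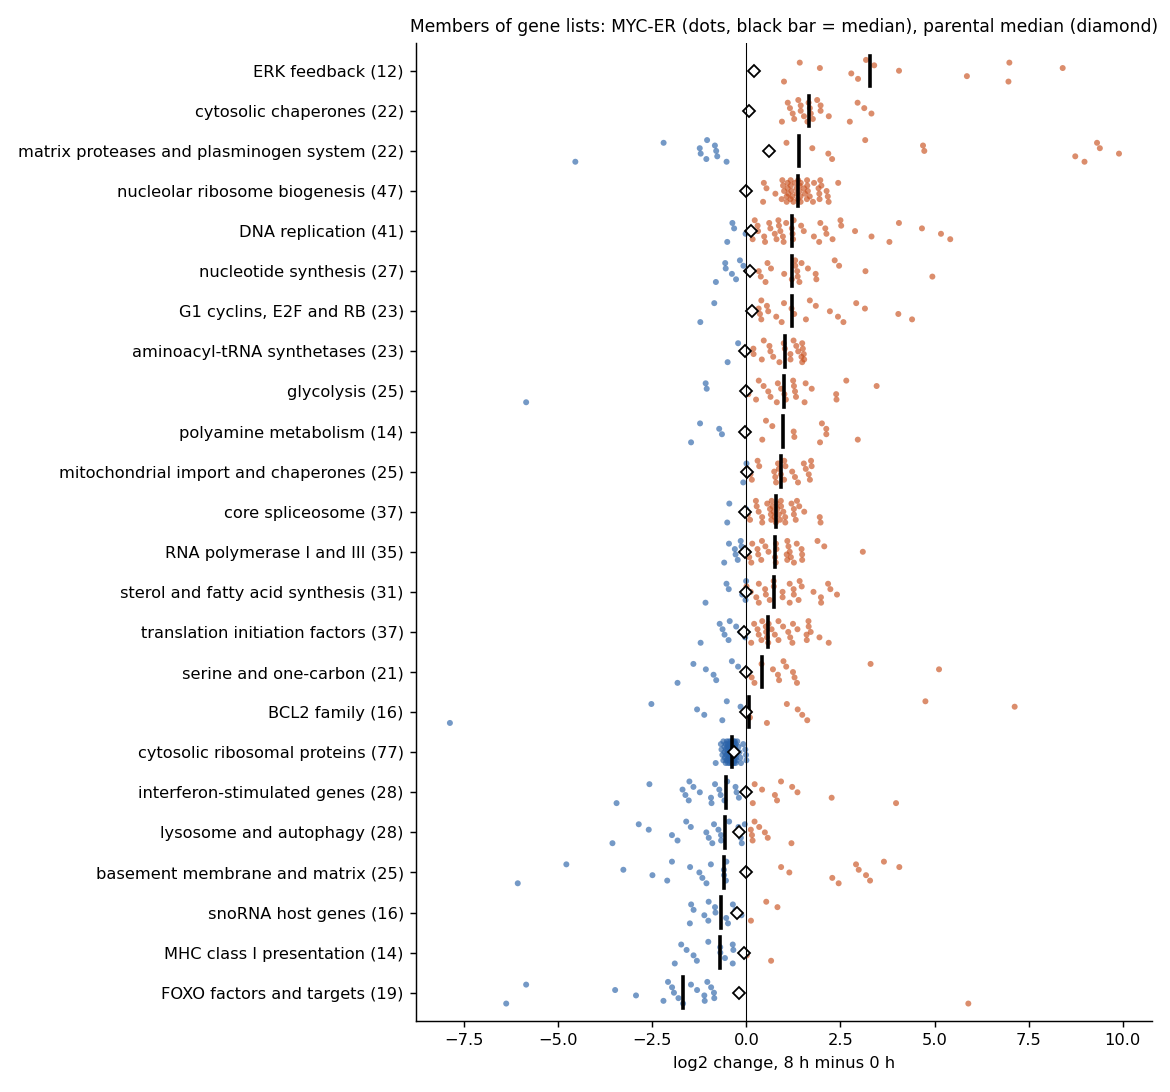
Log2 change from 0 h to 8 h (horizontal axis) of each tested member of 24 gene lists in MYC-ER cells (dots, orange above 0 and blue below), with the list's median as a black bar and its parental median as a diamond, and the number tested in brackets. Medians run from -1.69 for the FOXO genes to 3.29 for ERK feedback, the nucleolar factors all lie above 0, and the parental medians lie between -0.32 and 0.59.

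Inflammatory genes were mixed. Of 23 cytokine, chemokine and NF-kB feedback genes tested (of 25 listed) 11 rose and 7 fell, and parental cells had 13 higher and 1 lower with a median log2 change of 0.56. IL33, CSF3 and CXCL8 rose by 5.97, 4.80 and 4.04, CSF3 from 3.35, 3.74 and 3.19 CPM to 95.8, 94.1 and 95.6 CPM. BIRC3, an NF-kB target that blocks cell death, fell from 1094, 1148 and 1111 CPM to 241, 258 and 229 CPM (-2.20) and rose by 0.42 in parental cells. Interferon-stimulated genes had 7 of 28 higher and 15 lower, with a median of -0.55. Genes of MHC class I presentation had 1 of 14 higher and 12 lower, with a median of -0.70: the peptide transporter gene TAP1 fell from 135, 131 and 136 CPM to 44.8, 42.1 and 46.3 CPM (-1.59), PSMB9 by 1.91 and ERAP2 by 1.74, and NLRC5 rose by 0.66. HLA-B and HLA-C fell by 0.37 each, and their near-identical and polymorphic sequences make the split of reads among them uncertain.

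Of 17 TGF-beta, activin and BMP genes tested (of 18 listed) 6 rose and 7 fell. INHBA, the activin A subunit, rose from 0.365, 0.295 and 0.432 CPM to 26.2, 25.9 and 25.4 CPM (6.15, and 1.79 in parental cells) and TGFB1 from 34.5, 33.1 and 33.5 CPM to 143, 138 and 153 CPM, while the BMP targets ATOH8 and SMAD6 fell by 5.24 and 2.31. YAP and TAZ targets had 2 of 8 tested (of 9 listed) higher and 6 lower: AMOTL2, PTPN14 and LATS2 fell by 2.39, 1.82 and 1.75, and F3, tissue factor, rose by 3.71 (1.22 in parental cells). In the Notch pathway 5 of 10 rose and 4 fell. The targets NRARP and HES1 rose by 3.98 and 2.43, and NOTCH1 fell from 292, 274 and 267 CPM to 95.1, 100 and 105 CPM (-1.47).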

How the data were processed

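Per the labels' protocols, poly(A)-selected stranded libraries were read as 150-base pairs, with 3 libraries per lane, and no map of lanes is given. The submitters' processing notes name Trimmomatic 0.39, STAR, StringTie 2.1.3b and GRCh38. The deposited gene table holds estimated counts: whole numbers per gene, not normalized, and if StringTie made them they derive from coverage, so floors based on 3 counts are approximate. How reads matching several genes were treated is not given in the sources used here.

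Groups came from the labels. Genes passing filterByExpr (22158 of 60668) entered 1 fit of all 24 libraries, with a mean for each group and TMM scaling (edgeR 4.0.16, R 4.3.3). Contrasts were tested with the two-sided quasi-likelihood F test and Benjamini-Hochberg adjustment over all genes tested, at 0.05; every SE and adjusted p printed comes from this fit. The SE is the log2 change divided by the root of F. Symbols were found for 22021 tested genes. The 52 gene lists hold 1114 genes, 29 of them in more than 1 list, and 1077 were tested (585 higher, 359 lower). Members and lists were chosen with earlier results of these data known. Named genes are, in each direction, the 12 largest log2 changes and the 8 largest CPM changes (called, at least 10 CPM in the higher group, no overlap), from each list 3 called members in the main direction, 2 in the other and the most abundant (at least 1 CPM), any member of lists of 20 or fewer, and MYC, MAX and ESR1; some genes that meet this rule are not reported here. The fit was tested on simulated data. Alternatives were other scalings, filters, DESeq2 1.42.0, fits of only the groups compared, glmTreat against 1.5-fold, the replicate number as a block and leaving out each library; removing each library's GC trend (lowess, span 0.3) and counting promoters with any window were added after seeing the data.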

Additional observations from a re-analysis of the deposited data

Results flagged for a closer look

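Results are listed here because the change at 8 h differed between the lines in the test of the difference itself. It was called for 12227 of the 22158 genes tested (55.2%), and for 261 of the 279 genes open to naming by rule. Those 279 were picked among genes called in MYC-ER cells, and their change is part of the difference, so a high share was built in. Also past it were all 1422 genes called in opposite directions in the 2 lines, which opposite calls nearly ensure. Of the 1422, 25 were open to naming. Of those with at least a 2-fold change in MYC-ER cells, 12 follow, as the change in MYC-ER less that in parental cells, on the log2 scale. Lower in MYC-ER and higher in parental cells were MYCL (-4.12), the matrilysin MMP7 (-2.75), the chemokine CXCL2 (-2.64), BIRC3 (-2.62) and the glucose carrier SLC2A3 (-2.36), which has a near-identical paralogue. Higher in MYC-ER and lower in parental cells were ARG2, an arginase (2.82), EIF4EBP1 (2.52), BOP1 (2.51), TGFB1 (2.38), EIF2B2 (2.13), OASL (1.97) and MYC (1.24). The parental changes of these genes were between -0.70 and 1.28, and they rest on the parental 0 h libraries that stood apart. Parental means at 0 h and 8 h were low for MYCL (0.101 and 0.219 CPM), SLC2A3 (0.201 and 0.486) and MMP7 (0.579 and 0.849). Groups of 3 are too small for an outlier test.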

How the results depend on the processing

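The count for MYC-ER cells stayed within 1.5 times of 14975 in every alternative but glmTreat, and no gene called was called with the opposite sign in any of them. It was 14905 to 15216 under other scalings, 14977 with DESeq2's Wald test, 15555 with the GC trend removed and 14256 to 14345 leaving out 1 library. Testing against a 1.5-fold change (glmTreat) gave 8848 genes for MYC-ER, 126 for parental cells, 6832 for the difference between the lines and 612 list members in place of 944. The parental count of 6870 was 1452 with only the groups compared, and 4720 to 9166 leaving out 1 library, the highest without parental 0 h replicate 2. The difference gave 11675 to 12991 leaving out 1 library. The share of promoters with CACGTG among genes called higher was 10.7%, against 9.83% of all genes tested. It was 11.9% against 11.6% for genes of at least 10 CPM, and 13.1% against 11.8% when any window of a gene counted. The mitochondrial share fell by 2.98 to 3.46 percentage points leaving out 1 library and by 1.97 over the 13 protein-coding genes. Of the calls, 47.7% were higher as reported and 41.0% to 49.4% otherwise, and upper quartile scaling or GC removal moved the median of all genes from -0.10 to -0.24.

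Pairing by replicate number was looked at with deviations from the group means across all genes. Those of same-numbered MYC-ER libraries at 0 h and 8 h correlated with r of 0.05, -0.03 and -0.02. Those of same-numbered MYC-ER and parental libraries correlated with r of -0.013 to 0.039. Of the 22158 genes, 8565 had a mean under 1 CPM, and noise in weak genes can hide a shared effect. A near-zero r therefore does not decide whether replicate numbers pair the libraries. EGLN3, CA9, NDRG1, VEGFA and BHLHE40 were highest in replicate 3 at 8 h in both lines, as above. The replicate block gave 14890 calls for MYC-ER, 6838 for parental cells and 12158 for the difference. Reversed were the difference for NDUFS7 (-0.01; -0.15 to 0.15 leaving out 1 library, highest without parental 0 h replicate 2) and IMPDH2 (0.04; -0.20 with the GC trend removed), and the balance of called members of 3 lists: TGF-beta (higher minus lower 2 under glmTreat), junctions (1 under DESeq2's size factors and its Wald test) and proteases (-2 with at least 10 counts in every library). For these the cause was not tested.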

Other observations

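Noncoding transcripts fell more often than they rose. Of 1657 lincRNAs tested 232 were called higher and 688 lower, and of 1731 antisense genes 233 and 692, against 6049 higher and 5383 lower among 15012 protein-coding genes. Most noncoding genes are weakly expressed, and among all genes with a mean under 1 CPM the called genes also leaned lower, 1357 against 2562.

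Other messages that begin with the terminal oligopyrimidine tract, the 5′ feature shared by ribosomal protein genes, were looked at after the values of EEF1A1 had been seen. The list holds 16 translation factors and related genes, of which 0 were called higher and 14 lower, with a median log2 change of -0.46 in MYC-ER cells. EEF1A1, which prompted the list, is among the 14. In parental cells 12 were lower, with a median of -0.22, and the difference between the lines was called negative for 6 of the 16. EEF1A1 went from 18860, 20660 and 20340 CPM to 11190, 10850 and 11420 CPM (-0.84), EEF1G changed by -0.72, EEF2 by -0.56 and TPT1 by -0.48, while EEF1B2 (-0.15) and EEF1D (-0.18) did not pass the test.

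At the later times of the MYC-ER series, mean levels were as follows. DUSP6 stood at 12.9 CPM at 24 h and 9.60 at 48 h, SPRY4 at 6.95 and 6.75, and FBXO32 at 11.9 and 97.9. HSPA8 stood at 2584 and 946 CPM. KRT10 stood at 84.4 and 101 CPM. These groups were not compared here.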
